A study of Mus musculus with 12 samples.

Results

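The Tmprss11 genes encode the HAT/DESC branch of the type II transmembrane serine proteases. These enzymes sit in the cell membrane by a stretch near the N terminus and hold a trypsin-like catalytic domain outside the cell. They are made mainly by stratified squamous and airway epithelia, and members are known to cut protease-activated receptors, the urokinase receptor, fibrinogen and viral spike proteins in experimental systems. 6 of them, Tmprss11a, Tmprss11b, Tmprss11d, Tmprss11e, Tmprss11f and Tmprss11g, are described here out of 24479 probe sets on the array, each probe set standing for 1 Entrez gene. The 6 were chosen by family membership and on their tumor and normal mucosa values in these same arrays, so those values are given as a description and carry no test. A further family gene with a probe set, Tmprss11c, is no member and is given for comparison.

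The arrays came from 12 male CBA mice, 1 array per mouse. 9 mice drank the carcinogen 4-nitroquinoline 1-oxide (4-NQO) at 100 ug/mL for 8 weeks and 3 control mice did not. The labels give 4 groups of 3 mice: normal mucosa of control mice aged 24, 12 and 20 weeks, hyperplasia at 20, 16 and 20 weeks, dysplasia at 16, 24 and 16 weeks, and tumor at 20, 16 and 24 weeks, the last 3 groups all from treated mice. Epithelial cells of the tongue were cut out by laser microdissection, their RNA was amplified, and the authors deposited log2 expression values. The mean over 22 suprabasal genes of stratified epithelium was 8.94 to 10.73 across the 12 samples. The median probe set of an array stood at 6.155 to 6.351. Single genes of that list were dimmer in some lesions, such as Crnn at 4.65 to 5.62 in dysplasia. Normal mucosa is thus always untreated, and treatment cannot be told apart from lesion in a difference against it. 1 log2 unit is a 2-fold difference in signal. Levels of single genes are not compared with one another here, because each probe set has a brightness of its own.

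The family lies in a row on chromosome 5. In the RefSeq table of GRCm38.p6 the order is Tmprss11c, Tmprss11d, Tmprss11a, Tmprss11g, Tmprss11f, Tmprss11b and Tmprss11e. The row reaches from the start of Tmprss11c at 86231481 to the end of Tmprss11e at 86745807. Tmprss11g (86485877 to 86518600) and Tmprss11f (86521226 to 86632424) are next to each other in this row, with Tmprss11b (86659522 to 86676298) after them. The genes arose by tandem duplication, so probes of one could take up RNA of another, and the build behind the probe sets is not given in the sources used here.

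Of the RefSeq promoter windows, 6 belong to this gene row, all read from the minus strand. They run from 250 bases before the annotated start to 50 after it, and positions below count from that start. The window of Tmprss11a begins inside the annotated span of the gene, at another start than the outermost one. Those of Tmprss11b and Tmprss11g are shown because these members had the most alike profiles, and the capitals mark the longest run of bases that their 2 windows share on either strand. The 250 bases before the start lie at chr5:86676299-86676548 for Tmprss11b and at chr5:86518601-86518850 for Tmprss11g.
Tmprss11b: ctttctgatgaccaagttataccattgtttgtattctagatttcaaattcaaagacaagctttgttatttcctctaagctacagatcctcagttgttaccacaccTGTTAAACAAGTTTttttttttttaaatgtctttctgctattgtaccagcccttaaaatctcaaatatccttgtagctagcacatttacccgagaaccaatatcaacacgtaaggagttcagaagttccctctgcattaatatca
Tmprss11g: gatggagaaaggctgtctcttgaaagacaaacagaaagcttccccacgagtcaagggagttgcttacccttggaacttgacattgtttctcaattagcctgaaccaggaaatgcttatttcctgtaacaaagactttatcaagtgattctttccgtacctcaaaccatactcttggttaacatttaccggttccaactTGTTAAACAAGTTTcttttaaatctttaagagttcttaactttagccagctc
The shared run, TGTTAAACAAGTTT, has 14 bases and begins at -145 in Tmprss11b and at -52 in Tmprss11g. It stands in 2 of 32851 promoter windows of the mouse, 0.00609%, and these 2 are the ones shown. The run was chosen as the longest that these windows share, so its presence in both follows from that choice. The longest runs shared by the other pairs of the 6 windows had 7 to 10 bases. The 7 letters ACAAGTT within the run, searched on both strands after the run had been seen, stand in 4 of the 6 windows (Tmprss11a, Tmprss11b, Tmprss11d and Tmprss11g) and in 3.05% of all windows. Among the genes of these 4 windows, Tmprss11a lay lower and Tmprss11b higher in the lesions. Whether the 7 letters bear on expression was not tested.

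The window of Tmprss11f is shown because that gene went the other way from its neighbours Tmprss11g and Tmprss11b. The capitals mark a match to the AP-1 motif TGANTCA, searched on both strands, at -48 (the 250 bases lie at chr5:86632425-86632674).
Tmprss11f: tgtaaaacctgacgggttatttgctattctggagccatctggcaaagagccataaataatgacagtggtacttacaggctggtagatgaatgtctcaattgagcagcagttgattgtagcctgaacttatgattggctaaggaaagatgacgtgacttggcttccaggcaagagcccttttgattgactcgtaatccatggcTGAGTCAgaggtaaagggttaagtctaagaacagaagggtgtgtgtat
AP-1 is the dimer of Fos and Jun proteins that acts on many genes of squamous epithelium. A second match, TGATTCA at -39, is in Tmprss11d, and 7.81% of all windows hold one. In Tmprss11f the match overlaps one to the antioxidant response element TGACNNNGC, read on the other strand as GCTGAGTCA from -50. That motif has matches in 2 of the 6 windows, Tmprss11c and Tmprss11f, and in 12.4% of all windows. None of the 6 windows holds TATAAA (13.6% of all windows), the GC box GGGCGG (35.7%) or the grainyhead-like motif AACCNGTT (2.09%). A match is only a match of letters, and no binding was measured.

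The members did not move as a block. Tmprss11b, Tmprss11e and Tmprss11g lay above normal mucosa in tumors by more than 1 log2 unit, Tmprss11a and Tmprss11f lay below it by more than 1, and Tmprss11d lay 0.40 ± 0.36 below it (log2 difference ± standard error of the fit, as for all differences here). Thus 3 of 6 members exceeded 1 upward, against 2.4% of all probe sets, and 2 of 6 exceeded it downward, against 3.09%. In all 6 the 3 tumors and the 3 normal samples did not overlap, a pattern shown by 23.3% of all probe sets. The moderated test of limma called 1 of 6, Tmprss11b, where it called 1.97% of all probe sets at an adjusted p under 0.05. Since these values chose the genes, nothing is read from the counts.

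**Figure D1:**
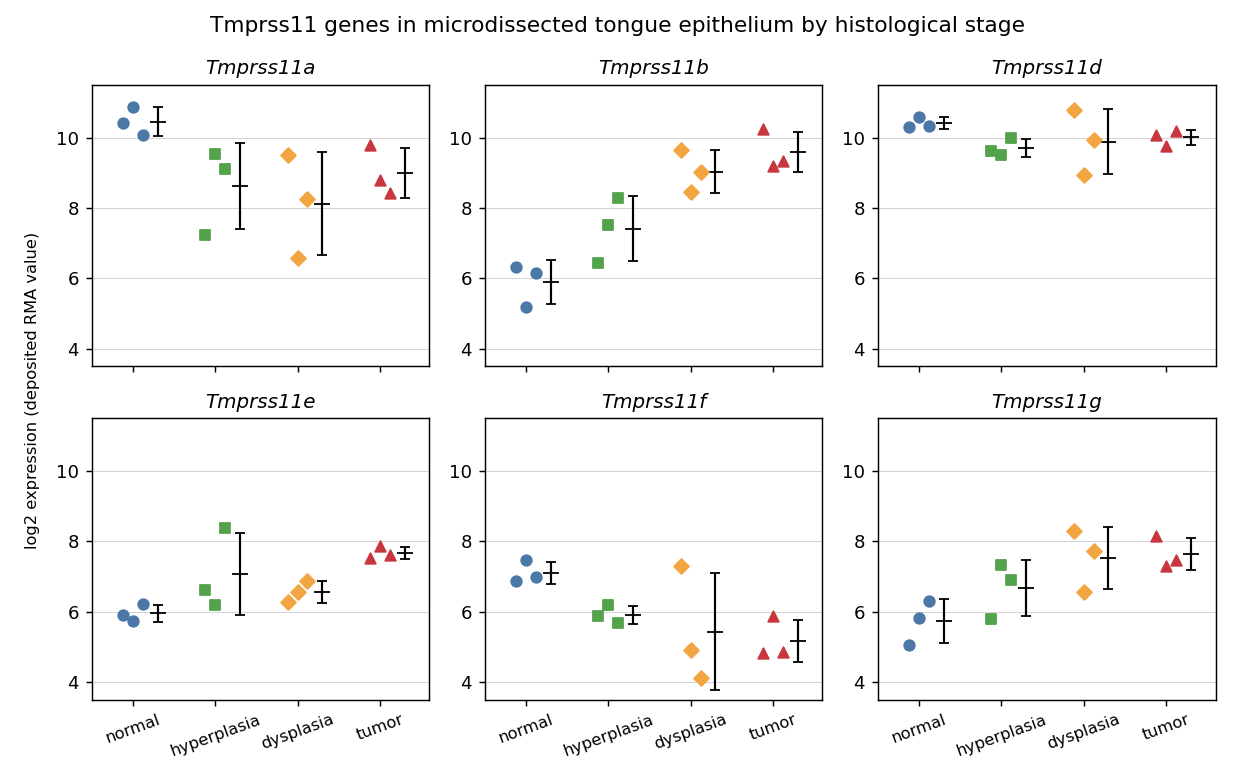
Deposited log2 expression of each member (y axis) in the 3 mice of each histological stage (x axis); points are mice and the bar beside them is the mean ± SD. Tmprss11b has its 6 dysplasia and tumor samples at 8.45 or above and its 3 normal samples at 6.33 or below, while Tmprss11f has its 3 normal samples between 6.87 and 7.46 and its 3 tumors between 4.82 and 5.87.

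Tmprss11b, a membrane protease of squamous epithelium, showed the widest difference of the family. Its log2 values were 6.33, 5.19 and 6.16 in normal mucosa, 6.43, 7.52 and 8.28 in hyperplasia, 9.65, 8.45 and 9.01 in dysplasia and 10.24, 9.20 and 9.35 in tumors. Each stage lay wholly above normal mucosa, and dysplasia lay wholly above hyperplasia, while tumor and dysplasia overlapped. Against normal mucosa the difference was 1.51 ± 0.48 in hyperplasia (2.85-fold), 3.14 ± 0.48 in dysplasia (8.81-fold) and 3.70 ± 0.48 in tumors (13.0-fold). With the RNA integrity number (RIN) as a covariate the tumor difference was 4.59. RIN was higher in each of the 3 tumors than in any normal sample, so RIN and stage cannot be told apart between these groups. What part RIN has in any of these differences was not tested.

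Tmprss11g, a gene that is intact in mouse and has only a pseudogene counterpart in human, had log2 values of 5.06, 5.83 and 6.30 in normal mucosa, 5.80, 7.34 and 6.91 in hyperplasia, 8.29, 6.56 and 7.73 in dysplasia and 8.16, 7.30 and 7.48 in tumors. Dysplasia and tumor were both above all normal samples, and hyperplasia reached down into the normal range through hyperplasia 1. The differences were 0.95 ± 0.49 in hyperplasia, 1.80 ± 0.49 in dysplasia and 1.92 ± 0.49 (3.77-fold) in tumors. Without normal 1 and dysplasia 1 the dysplasia difference was 1.08. Dysplasia and tumor had means of 7.53 and 7.65, closer than the spread within either stage.

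Tmprss11e, the mouse counterpart of the human protease DESC1, followed another course. It had log2 values of 5.90, 5.74 and 6.21 in normal mucosa, 6.61, 6.20 and 8.39 in hyperplasia, 6.27, 6.55 and 6.88 in dysplasia and 7.53, 7.87 and 7.62 in tumors. The 3 tumors were close together and above every dysplasia and every normal sample, with differences of 1.11 ± 0.43 from dysplasia and 1.72 ± 0.43 (3.30-fold) from normal mucosa. Hyperplasia rested on 1 mouse: its difference from normal mucosa was 1.11 ± 0.43 with all samples, 0.45 without hyperplasia 3, whose value of 8.39 was the highest of all 12, and 1.75 without the 4 samples of lowest RIN. Leaving out these 4 keeps 1 normal sample, normal 2, and the fit then takes its spread from the lesion groups.

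Tmprss11a lay lower in every lesion stage. Its log2 values were 10.42, 10.88 and 10.07 in normal mucosa, 7.22, 9.54 and 9.11 in hyperplasia, 9.51, 6.59 and 8.25 in dysplasia and 9.79, 8.79 and 8.42 in tumors. Every lesion sample was under every normal sample, and the 3 lesion stages overlapped one another. The differences from normal mucosa were -1.83 ± 0.70 in hyperplasia, -2.34 ± 0.70 in dysplasia and -1.46 ± 0.70 in tumors (2.74-fold lower). The hyperplasia difference was -1.13 without hyperplasia 1, the lowest of its stage. The tumor difference was -0.21 with RIN as a covariate. RIN was higher in each tumor than in any normal sample, so RIN and stage cannot be told apart in this difference.

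Tmprss11f had log2 values of 6.87, 7.46 and 7.00 in normal mucosa, 5.89, 6.18 and 5.67 in hyperplasia, 7.29, 4.90 and 4.12 in dysplasia and 4.82, 5.87 and 4.85 in tumors. Tumors and hyperplasia lay wholly below normal mucosa, and dysplasia did so except for dysplasia 1. The differences from normal mucosa were -1.19 ± 0.61 in hyperplasia, -1.67 ± 0.61 in dysplasia and -1.93 ± 0.61 in tumors. The dysplasia difference was -2.60 without dysplasia 1 and -1.01 without dysplasia 3. It was -2.95 without the 4 samples of lowest RIN and -2.72 without normal 1 and dysplasia 1. The tumor difference was -1.10 with RIN as a covariate and -2.28 without the 4 samples of lowest RIN.

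Tmprss11d, the human airway trypsin-like protease HAT in its mouse form, had the smallest tumor difference of the 6. Its log2 values were 10.31, 10.60 and 10.33 in normal mucosa, 9.62, 9.52 and 10.00 in hyperplasia, 10.79, 8.94 and 9.94 in dysplasia and 10.07, 9.77 and 10.19 in tumors. All hyperplasia and tumor samples were under all normal samples, but no difference exceeded 1: it was -0.70 ± 0.36 in hyperplasia, -0.53 ± 0.36 in dysplasia and -0.40 ± 0.36 in tumors. The dysplasia samples spanned the whole range, and their difference was -0.98 without dysplasia 1 and -0.05 without dysplasia 2.

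Tmprss11c, the family gene outside the 6, had values between 3.17 and 3.72 in all 12 samples. The dimmest 5% of probe sets on these arrays ended between 3.00 and 3.38, so this probe set was among the dim ones throughout. Its tumor minus normal difference was -0.21 ± 0.16 (adjusted p = 0.547 in limma).

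Along the row, Tmprss11c, Tmprss11d and Tmprss11a all had tumor differences below 0, of -0.21, -0.40 and -1.46. The next genes were Tmprss11g (1.92) and Tmprss11f (-1.93), which differed in sign, and the row ended with Tmprss11b (3.70) and Tmprss11e (1.72), both above 0. The 3 measured genes on each side of the row, Stap1, Uba6 and Gnrhr on one and Ythdc1, Ugt2b34 and Ugt2b1 on the other, had tumor minus normal differences of -0.39 to 0.61. None of these 6 was called by limma (adjusted p of 0.2246 to 0.9466).

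**Figure D2:**
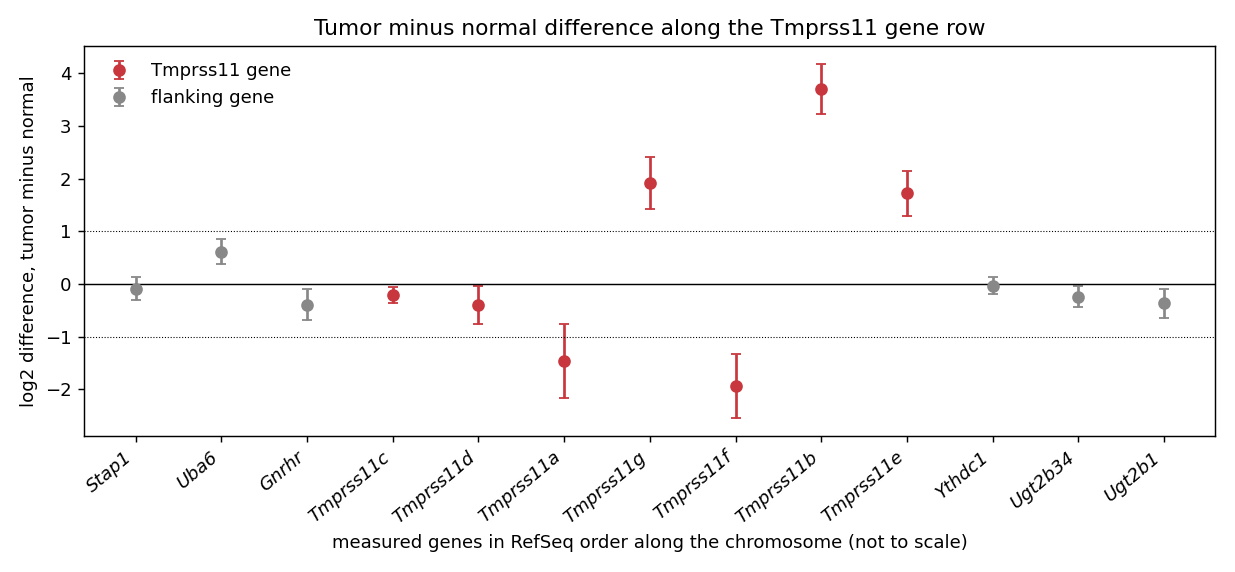
Tumor minus normal log2 difference (y axis; points with ± 1 standard error, n = 3 mice per group) of the 7 Tmprss11 genes and 3 measured genes on each side, in RefSeq order along the chromosome (x axis, not to scale). The dotted lines mark differences of 1 and -1; Tmprss11g, Tmprss11b and Tmprss11e lie above 1, Tmprss11a and Tmprss11f below -1, and every flanking gene between them.

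The stages before tumor showed much of the same spread. Between dysplasia and normal mucosa, 2 of 6 members exceeded 1 upward (Tmprss11b and Tmprss11g; 1.84% of all probe sets) and 2 of 6 downward (Tmprss11a and Tmprss11f; 2.38%). Groups did not overlap for 4 of 6 members, Tmprss11a, Tmprss11b, Tmprss11e and Tmprss11g, and for 16.0% of all probe sets. limma called 1 of 6, Tmprss11b, and 0.764% of all. That call was lost without normal 1, without normal 2, without dysplasia 3, and without the 4 samples of lowest RIN. Between hyperplasia and normal mucosa, 2 of 6 exceeded 1 upward (Tmprss11b and Tmprss11e; 1.12% of all) and 2 of 6 downward (Tmprss11a and Tmprss11f; 1.65%). Groups did not overlap for 4 of 6, Tmprss11a, Tmprss11b, Tmprss11d and Tmprss11f, and for 16.0% of all probe sets, and limma called 0 of 6, against 0.0654% of all. An unadjusted p under 0.05 was found for 3 of 6 and for 9.77% of all probe sets. The methods' t-test called 0 after adjustment in each of the 3 contrasts with normal mucosa. These 3 contrasts share the normal samples, so their values are given side by side and not set against each other. The normal samples also helped to choose the members, so the member counts are a description and nothing is read from them.

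Fewer members exceeded 1 among the lesion stages. 1 of 6 exceeded 1 between tumor and hyperplasia (Tmprss11b, 2.19 ± 0.48; 1.94% of all probe sets exceeded 1), and 1 of 6 between tumor and dysplasia (Tmprss11e, 1.11 ± 0.43; 1.7% of all). limma called 0 of 6 and 0.0% of all probe sets between tumor and hyperplasia, where 1 of 6 and 6.2% of all had an unadjusted p under 0.05. Between tumor and dysplasia it called 0 of 6 and 0.00409% of all, and 1 of 6 and 6.34% of all had an unadjusted p under 0.05. The methods' t-test called 0 of 6 after adjustment in both. The tumor samples helped to choose the members, so these member counts are a description too.

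Dysplasia against hyperplasia shares no sample with the tumor and normal values that chose the members, so member p-values are given for it. They are not fully independent of the choice. The limma spread comes from all samples, tumor and normal mucosa among them, and the members were chosen with earlier results of these data known. The exact permutation test below uses the dysplasia and hyperplasia values only. 1 of 6 exceeded 1 there, Tmprss11b, against 1.74% of all probe sets, and limma called 0 of 6 and 0.0% of all. An unadjusted p under 0.05 was found for 1 of 6 and for 4.54% of all probe sets, and the methods' t-test called 0 after adjustment. Tmprss11b had 9.65, 8.45 and 9.01 in dysplasia against 6.43, 7.52 and 8.28 in hyperplasia, with no overlap. The difference was 1.63 ± 0.48 (3.09-fold, 95% interval 0.59 to 2.67), with an unadjusted p of 0.005167 and an adjusted p of 1 in limma. An exact two-sided permutation test gave p = 0.1, the smallest that 3 against 3 mice allow. For Tmprss11g the difference was 0.85 ± 0.49 with an interval of -0.21 to 1.91. The intervals of the other members also included 0, from -2.03 to 1.02 for Tmprss11a, -0.60 to 0.95 for Tmprss11d, -1.44 to 0.44 for Tmprss11e and -1.81 to 0.85 for Tmprss11f.

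The order of the stage means differed among members. In Tmprss11b it was tumor, dysplasia, hyperplasia and normal from high to low, and tumor and dysplasia could not be told apart by their spread. Tmprss11g had the same order, with every neighbouring pair overlapping. In Tmprss11f the order ran the opposite way, and only hyperplasia and normal mucosa did not overlap among neighbours. Tmprss11a and Tmprss11d were highest in normal mucosa and had no order beyond the spread among the lesions. Tmprss11e was highest in tumors and lowest in normal mucosa, with overlap between tumor and hyperplasia and between hyperplasia and dysplasia.

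Across the 12 samples Tmprss11b and Tmprss11g had the most alike profiles of the 15 pairs of members. Pearson's r was 0.877 and Spearman's rho 0.86 over 12 samples, r was 0.855 over the 9 samples of treated mice alone, and r was 0.899 over 10 samples without the 2 whose Tmprss11b values were farthest from its median. Tmprss11a and Tmprss11d followed with r of 0.759 over 12 samples and 0.66 over 9. Some pairs looked different once the normal samples were set aside: Tmprss11a and Tmprss11g had r of -0.113 over 12 samples and 0.752 over the 9 of treated mice. In the same way Tmprss11d and Tmprss11g had r of 0.055 over 12 and 0.682 over 9. These r are descriptions, since the points share stage, RNA quality and possibly cross-hybridizing probes.

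**Figure D3:**
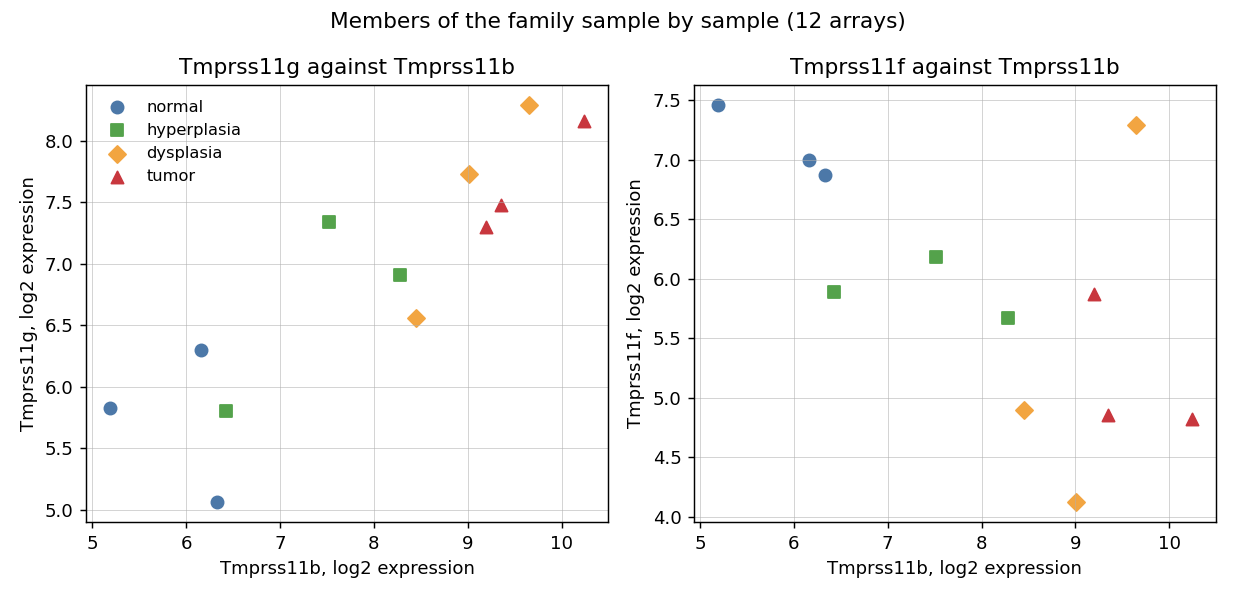
Log2 expression of Tmprss11g (left panel, y axis) and Tmprss11f (right panel, y axis) against Tmprss11b (x axes); each point is 1 of the 12 arrays, coloured by stage. Tmprss11g is high where Tmprss11b is high (r = 0.877), and Tmprss11f tends to be low there (r = -0.617 over 12 samples, -0.185 over the 9 of treated mice).

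The genes outside the family with the profile most like each member over the 12 samples were named by Pearson's r. For Tmprss11b they were Cd47 (0.972), which codes for a signal against phagocytosis, the desmosomal cadherin gene Dsg3 (0.963) and Urah (0.949). For Tmprss11g they were Cd47 again (0.937), the class I histocompatibility gene H2-K1 (0.906) and Nav1 (0.900). Tmprss11f was nearest to Lpin3 (0.950), to Asprv1 (0.946), which codes for an aspartic protease of the granular layer, and to Rnf39 (0.943). Tmprss11a was nearest to Olfr1057 (0.943), Crybg1 (0.929) and Foxn1 (0.901), a transcription factor gene of thymic and hair follicle epithelium. Tmprss11d was nearest to Lhfpl1 (0.923), Fam160a1 (0.896) and Dvl3 (0.894), and Tmprss11e to Fblim1 (0.940), the calponin gene Cnn3 (0.926) and 1700024F13Rik (0.922). These were picked among the 23281 probe sets with 1 gene symbol, the family left out, so high values follow from the selection. Over the 9 samples of treated mice the nearest gene was still Cd47 for Tmprss11b (0.981) and Olfr1057 for Tmprss11a (0.982), and a different gene for the other 4 members.

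Other genes around membrane proteolysis were counted in the same way, as lists. Whether they act on or with the Tmprss11 proteases was not tested. Between tumor and normal mucosa limma called 1.97% of all probe sets, and 16.95% had an unadjusted p under 0.05. The counts of the lists below stand beside these shares and were not tested against them. Of 16 other membrane-anchored serine proteases, all measured, limma called 0 between tumor and normal mucosa, with 1 at an unadjusted p under 0.05, and the methods' t-test called 0 after adjustment. Their median difference was -0.04 against -0.05 over all probe sets. The list holds matriptase (St14, -0.34 ± 0.22), prostasin (Prss8, -0.56 ± 0.35, adjusted p = 0.4483), Tmprss2 (-0.02 ± 0.21) and Tmprss4 (0.34 ± 0.32). Its widest difference was 0.82 ± 0.32 for Tmprss12 (adjusted p = 0.2181). Unlike these genes, 5 of the 6 Tmprss11 members exceeded 1, but they had been chosen on that contrast and the lists were not tested against each other.

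Of 12 inhibitors 11 were measured, and limma called 1, which fell in tumors. Serpinb13, a clade B serpin of squamous epithelium known to inhibit cysteine cathepsins, had 4.00, 3.81 and 3.88 in tumors against 6.08, 6.17 and 6.28 in normal mucosa. Its difference was -2.28 ± 0.24 (adjusted p = 0.001803), and it was also lower in dysplasia (-2.12 ± 0.24, adjusted p = 0.003051) and hyperplasia (-2.07 ± 0.24, adjusted p = 0.007301). The Kunitz inhibitors of membrane serine proteases did not pass the test, with -0.20 ± 0.24 for Spint1 and 0.09 ± 0.18 for Spint2. Serpina5, the protein C inhibitor, had -0.54 ± 0.28 (adjusted p = 0.3455), and the median of the 11 was -0.20.

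Of 15 substrates and receptors 14 were measured, and limma called 0 between tumor and normal mucosa (4 at an unadjusted p under 0.05; 0 by the methods' t-test after adjustment). Plau, the urokinase gene, had 9.04, 9.69 and 10.13 in tumors against 8.53, 7.54 and 7.67 in normal mucosa, with a difference of 1.71 ± 0.42 (adjusted p = 0.06015). Met, the receptor gene of hepatocyte growth factor, had 10.01, 8.70 and 8.24 in tumors against 7.73, 7.41 and 7.79 in normal mucosa (1.34 ± 0.37, adjusted p = 0.08603). Plaur, the urokinase receptor gene, stood at 0.87 ± 0.22 (adjusted p = 0.07037), and Scnn1a, a subunit of the epithelial sodium channel, at -0.98 ± 0.31 (adjusted p = 0.132). Plau, Plaur and Met lay near the threshold without passing it, and some alternatives called Plau, Plaur or Met.

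**Figure D4:**
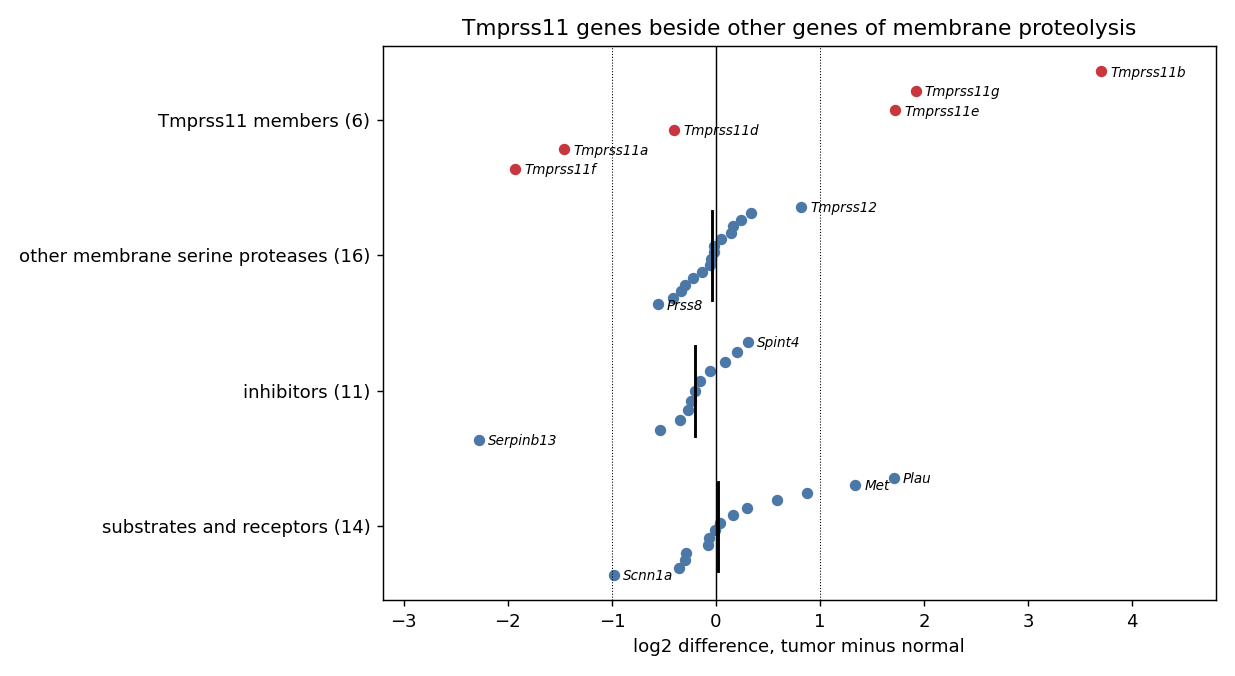
Tumor minus normal log2 difference (x axis) of the 6 members (red) and of the measured genes of 3 lists around membrane proteolysis (blue). Each point is a gene, the number of genes stands in brackets and the vertical bar is the median of a list. The other membrane proteases lie between -0.56 and 0.82, and the members between -1.93 and 3.70.

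The members were set beside the state of the epithelium, as the mean log2 value of marker lists in each sample. In tumors 13 of 16 hard keratin genes of the filiform papillae were called lower (list mean 5.10 to 6.42 in tumors, 9.12 to 10.70 in normal mucosa), and 6 of 22 suprabasal genes, with Krt76 at -4.90 ± 0.95. Genes of the cornified envelope were divided, with 4 of 21 measured called lower, among them Hrnr at -3.67 ± 0.85, and 2 called higher, Sprr2d at 4.48 ± 1.03 and Sprr2i at 4.76 ± 0.80, whose near-identical relatives could share their probes. The mean of that list overlapped between groups (8.49 to 8.82 in tumors, 8.36 to 9.19 in normal mucosa). Of 8 measured genes of activated keratinocytes, 4 were called higher (11.71 to 11.83 in tumors, 9.43 to 9.92 in normal mucosa), among them S100a9 at 6.32 ± 0.39. Of the 15 lists, Tmprss11f followed the suprabasal one most closely over all samples, with r of 0.866 over 12 samples and 0.773 over the 9 of treated mice. Among treated mice alone its closest list was that of regulators of squamous differentiation, with r of 0.848 (0.618 over 12). Tmprss11b was high where the activated list was high, with r of 0.83 over 12 and 0.81 over 9. The widest tumor differences in that list were those of S100a9 and S100a8 (4.99 ± 0.34), which are also in the neutrophil list. With the neutrophil list Tmprss11b had r of 0.801 over 12 and 0.412 over 9. Fosl1, a gene for an AP-1 subunit, was the only called gene of 20 measured regulators of squamous differentiation. It had 7.82, 8.88 and 8.40 in tumors against 7.19, 5.63 and 5.85 in normal mucosa (2.14 ± 0.40, adjusted p = 0.02079).

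Markers of other cell types also varied between the samples. The mean of 12 endothelial genes was 6.80 to 7.09 in tumors and 6.11 to 6.41 in normal mucosa, with 1 gene called higher, Cdh5. For Tmprss11d the r with that mean was -0.895 over 12 samples and -0.956 over the 9 of treated mice, the widest of the 90 pairs of a member with a list among treated mice. Dysplasia 1 had the highest Tmprss11d value and an endothelial mean of 6.28, and dysplasia 2 had the lowest Tmprss11d value and an endothelial mean of 7.41. For Tmprss11a the same r was -0.839 and -0.732. The mean of 12 fibroblast genes was 6.80 to 7.10 in tumors and 7.43 to 7.72 in normal mucosa, with 1 gene called lower, Dcn (-3.06 ± 0.59). The r of the fibroblast mean with Tmprss11b was -0.741 over 12 samples and -0.634 over the 9 of treated mice. With Tmprss11d it was -0.265 over 12 and -0.769 over 9. In bulk samples fewer cells of a type and less RNA per cell cannot be told apart, and the part of these cells in the members' values was not tested. For Tmprss11b and Tmprss11g the closest list over 12 samples was that of erythrocyte genes, with r of -0.862 and -0.895. Over the 9 of treated mice these r were -0.672 and -0.775, and for Tmprss11b the activated list was closer (0.81). The erythrocyte mean was 5.97 to 6.55 in tumors and 7.69 to 8.58 in normal mucosa. Of 8 genes 4 were measured, and 2 were called lower, Hbb-bs (-3.58 ± 0.64) and Hbb-b1 (-4.18 ± 0.76). Alas2 (-0.22 ± 0.41) and Slc4a1 (0.03 ± 0.20) were not called.

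**Figure D5:**
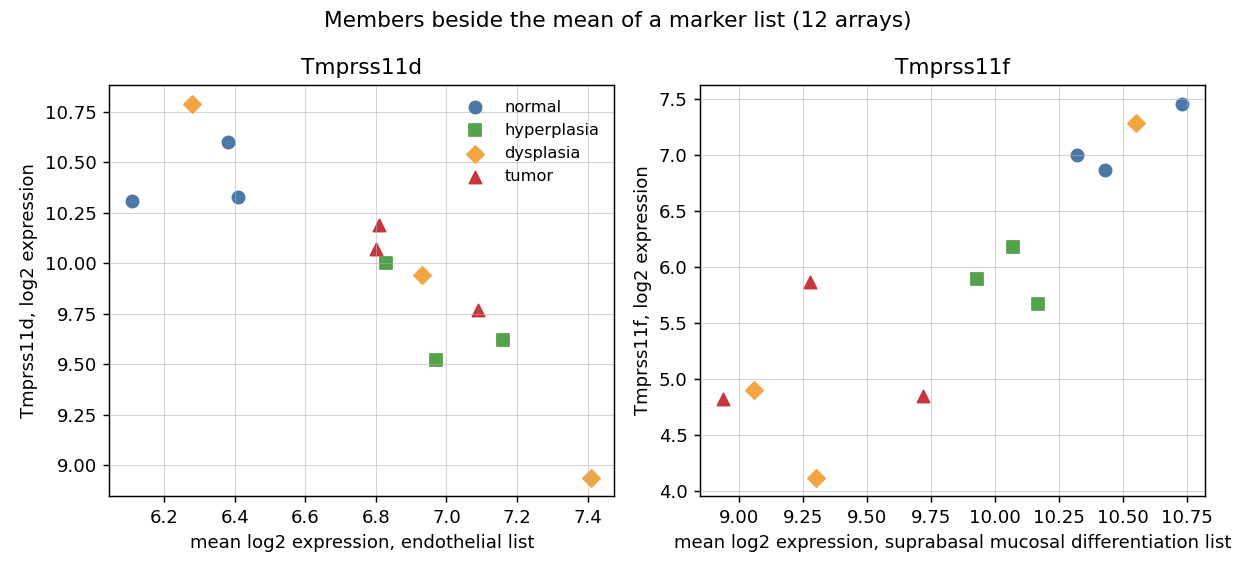
Left: log2 expression of Tmprss11d (y axis) against the mean log2 value of 12 endothelial genes (x axis). Right: Tmprss11f (y axis) against the mean of 22 suprabasal genes (x axis); each point is 1 of the 12 arrays, coloured by stage. Tmprss11d is low where the endothelial mean is high (r = -0.895), and Tmprss11f is high where the suprabasal mean is high (r = 0.866).

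A few samples stood apart. Dysplasia 1 had the highest value of its stage for Tmprss11a, Tmprss11b, Tmprss11d, Tmprss11f and Tmprss11g, and a T and NK cell list mean of 7.31, against 5.90 and 6.01 in the other dysplasia samples. The skeletal muscle list (16 genes, 0 called by limma, 10 at an unadjusted p under 0.05, 0 by the methods' t-test after adjustment) had means of 6.01 to 7.44 in tumors and 6.51 to 9.61 in normal mucosa. The samples were prepared on 8 days, of which 2 held more than 1 stage. One day held tumor 1 (20 weeks) and normal 2 (12 weeks). The tumor was higher by 5.05 for Tmprss11b, 2.33 for Tmprss11g and 1.79 for Tmprss11e. It differed by -2.64 for Tmprss11f, -1.09 for Tmprss11a and -0.52 for Tmprss11d. For Tmprss11b these samples were the highest tumor (10.24) and the lowest normal sample (5.19). For Tmprss11f they were the lowest tumor (4.82) and the highest normal sample (7.46). For the other members they were not the widest pair. On a day with 2 tumors and dysplasia 1 the tumor minus dysplasia difference was 1.48 for Tmprss11e, -1.93 for Tmprss11f, -0.37 for Tmprss11b, -0.91 for Tmprss11a, -0.91 for Tmprss11g and -0.81 for Tmprss11d. Over all samples that difference was 0.88 for Tmprss11a, 0.56 for Tmprss11b, 0.12 for Tmprss11g and 0.13 for Tmprss11d. All of these had the opposite sign on that day. Each of these rests on 2 or 3 arrays and has no test.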

How the data were processed

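Members and gene lists were chosen with earlier results of these data known. The authors ran quantile normalization and RMA on Mouse Gene ST 2.0 arrays and deposited the log2 values in 1 table of 24479 probe sets, of which 23281 carry 1 gene symbol and 1198 none. Software versions and the build of the probe sets are not given in the sources used here. Arrays have no sequencing depth; 3 mice per group limit the precision. Array medians ran from 6.155 to 6.351, and r between arrays from 0.904 to 0.967.

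A model of 4 group means was fitted to the 12 samples by limma 3.58.1 (R 4.3.3), with empirical Bayes moderation and Benjamini-Hochberg adjustment over 24479 probe sets at 0.05. The fit was tested on simulated data. Every adjusted p is from limma. Counts, correlations and sequence matches were made in Python 3.11.15. Promoters are from RefSeq (GRCm38.p6). RIN and preparation day came from the supplementary table of samples.

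The genes named are the members, Tmprss11c, up to 4 called genes of a list (or the 2 widest where none is called), 3 measured genes on each side of the row and the 3 most alike profiles. St14, Tmprss2, Tmprss4, Spint1, Spint2, Serpina5, Plaur, Scnn1a, Alas2 and Slc4a1 were added after their values were seen. The alternatives were repeated quantile normalization, a filter on dim probe sets, an intensity trend, fits of 2 groups, the methods' t-test, RIN, preparation day, a replicate block, each sample left out, and, added after seeing the data, the 4 samples with a low RIN or normal 1 and dysplasia 1 left out. Human data of the study were not analysed here.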

Additional observations from a re-analysis of the deposited data

How the results depend on the processing

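Of 792 member differences under an alternative, 758 moved by less than the spread between mice and 34 by more. All 352 values belonging to the 16 differences beyond 1 kept their direction. Many of these values could not have moved. A dim filter, an intensity trend, fits of 2 groups, the methods' t-test and a replicate block keep the difference of group means. So does leaving out a sample of a group outside the contrast, so these counts are no full measure of stability. The count of members beyond 1 between tumor and hyperplasia, 1 of 6, was 3 with RIN as a covariate, 2 without the 4 samples of low RIN and 1 to 3 when each sample was left out in turn. Between dysplasia and hyperplasia, also 1 of 6, it was 2 without those 4 samples, 3 without normal 1 and dysplasia 1, and 1 to 3 over single samples left out. Between tumor and dysplasia, again 1 of 6, it was 2 with RIN as a covariate and 1 to 2 over single samples left out. Inhibitors called between tumor and normal mucosa, 1 in the fit as reported, were 0 without the 30% dimmest probe sets, a filter that removed Serpinb13, and 0 by the methods' t-test after adjustment, which called 1 gene of all. Substrates and receptors called, 0 as reported, were 1 after repeated quantile normalization (Plaur), 2 without the dimmest probe sets (Plau and Plaur), 1 without the 4 samples of low RIN (Scnn1a), and 0 to 1 over single samples left out: Plaur without normal 3, Plau without hyperplasia 3 or dysplasia 1, Met without tumor 3. Members called by limma between tumor and normal mucosa, 1 as reported, ranged from 0 by the methods' t-test to 4 in the fit of the 2 groups alone. All probe sets called there were 483, against 17 with RIN as a covariate. Causes were not tested.

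The replicate numbers did not pair the samples: 1 of 18 same-numbered pairs had a correlation of deviations over 0.1 (-0.1129 to 0.1124). The replicate block left the member counts unchanged (5, 4 and 4 of 6 beyond 1 for tumor, dysplasia and hyperplasia against normal mucosa, 1 of 6 for each other contrast) and called 433 probe sets between tumor and normal mucosa. With 3 mice per group and dim signals near 3 to 4 on the log2 scale, small differences were not detectable.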
